A study of Mus musculus with 6 samples.

Results

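The unfolded protein response and the integrated stress response were followed through 33 genes, chosen by name from the 55487 genes counted in each library. The list held 14 chaperones and folding factors of the endoplasmic reticulum (ER), 6 genes of ER-associated degradation (ERAD), the 3 ER stress sensors with the transcription factor Xbp1, and Atf4 with 8 of its targets. The samples were tumour-associated macrophages, sorted between day 15 and day 17 from subcutaneous tumours of Lewis lung carcinoma, a transplantable mouse lung cancer cell line, grown in C57BL/6 mice. Sorted cells carried CD11b and F4/80, lacked Ly6C and Ly-6G, and were parted by their surface level of MHC class II, with 3 libraries labelled high and 3 labelled low. Each of 3 numbered batches held 1 library per label. No genotype or drug differed between the labels, and the age and sex of the mice, and whether animals were pooled, are not stated in the labels. The labels do not tie libraries to individual mice, so each p-value rests on library-to-library spread that may be technical.

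The ER folds secreted and membrane proteins. When misfolded proteins build up there, the sensors IRE1 (gene Ern1), ATF6 and PERK (gene Eif2ak3) start the unfolded protein response: IRE1 splices the Xbp1 mRNA into a form that encodes an active transcription factor, ATF6 is cut to release another, and PERK phosphorylates the initiation factor eIF2. XBP1 and ATF6 raise the transcription of chaperones and of the ERAD machinery, which sends misfolded proteins to the proteasome. Phosphorylated eIF2, also made by kinases that sense amino acid shortage, viral RNA or haem shortage, slows translation in general while favouring that of Atf4. The targets of ATF4 include enzymes that make amino acids, and this arm is the integrated stress response. Macrophages are secretory cells and carry out both programmes. Gene-level counts separate neither spliced from unspliced Xbp1 mRNA nor translated from untranslated Atf4 mRNA.

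Several promoters of the chaperone and ERAD genes hold a known stress element. The members were chosen by name as known genes of these responses, for which such elements are described, so the shares below are a description. RefSeq windows from 250 bases before to 50 bases after the start site (GRCm38.p6) were found for 29 of the 33 members, all but Atf6, Hyou1, Manf and Derl1. They were searched on both strands for the ER stress response element ERSE (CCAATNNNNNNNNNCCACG), which is bound by NF-Y together with ATF6 or XBP1. ERSE was present in 7 of 12 chaperone genes, in 1 of 5 ERAD genes, in 0 of 3 sensor and Xbp1 genes and in 0 of 9 genes of the Atf4 group. Among all 27025 genes with a window, 37 held it, which is 0.137%. The related ERSE-II (ATTGGNCCACG) was in the windows of Dnajb11 and Herpud1 and of 0.0444% of all genes. The Dnajb11 match begins at base 8 counted from the start site. In the 250 bases before the start alone ERSE-II was in 0 of 12 chaperone genes and 0.037% of all genes, and ERSE was still in 7 of 12. The matches are shown so that the element can be compared between genes, with 5 bases on each side, in the direction of the gene, and with the fixed letters of the motif in capitals.

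Hspa5, chr2:34772020-34772048, plus strand: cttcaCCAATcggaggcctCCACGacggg
Hsp90b1, chr10:86705528-86705556, minus strand: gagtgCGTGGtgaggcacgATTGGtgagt
Hsp90b1, chr10:86705633-86705661, minus strand: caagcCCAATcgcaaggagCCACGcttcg
Calr, chr8:84847070-84847098, minus strand: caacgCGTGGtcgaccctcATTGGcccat
Canx, chr11:50325795-50325823, minus strand: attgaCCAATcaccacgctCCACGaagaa
Pdia6, chr12:17266486-17266514, plus strand: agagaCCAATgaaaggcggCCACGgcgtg
Dnajc3, chr14:118937822-118937850, plus strand: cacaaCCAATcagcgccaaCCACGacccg
Creld2, chr15:88819515-88819543, plus strand: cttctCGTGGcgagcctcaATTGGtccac
Syvn1, chr19:6046527-6046555, plus strand: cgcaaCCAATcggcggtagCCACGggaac
Dnajb11, chr16:22857847-22857867, plus strand: cggcgATTGGcCCACGcctgg

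In Hsp90b1 (the outer of its 2 lines excepted), Calr and Creld2 the element lies in the reverse orientation, so that it reads CGTGG before ATTGG. No member window held more than 1 of the motifs ERSE, ERSE-II and the XBP1-binding core TGACGTGG, so overlaps between them could not arise. That core was in 0 member windows and in 0.714% of all genes.

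The Atf4 group was searched for the C/EBP-ATF response element CARE (TGATGNAA), the sequence bound by ATF4 with C/EBP partners. It was present in 3 of 9 genes of that group, in Herpud1 and in no other member, against 4.51% of all genes. The Trib3 match begins at base 15 counted from the start site. In the 250 bases before the start alone CARE was in 2 of 9 genes of the group and 3.91% of all genes. A longer form with a final T (TGATGNAAT), searched first, was in 0 members and 1.08% of all genes. The 3 matches are shown in the same way.

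Asns, chr6:7693220-7693237, minus strand: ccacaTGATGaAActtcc
Chac1, chr2:119351044-119351061, plus strand: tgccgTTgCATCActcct
Trib3, chr2:152344034-152344051, minus strand: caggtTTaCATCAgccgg

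Herpud1, an ER membrane protein of the ERAD complex, was the 1 member whose window held matches of both kinds, an ER stress element and CARE, and it was chosen for display after this was seen. The 250 bases before its start (chr8:94386179-94386428, plus strand) are printed with the CARE match, in reverse orientation, and then the ERSE-II match in capitals.

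Herpud1: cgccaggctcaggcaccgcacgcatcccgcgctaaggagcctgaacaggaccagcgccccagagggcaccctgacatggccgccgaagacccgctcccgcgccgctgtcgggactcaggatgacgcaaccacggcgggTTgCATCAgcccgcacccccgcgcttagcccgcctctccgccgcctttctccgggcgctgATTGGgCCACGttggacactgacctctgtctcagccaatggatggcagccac

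Such matches describe letters in a window and not binding in these cells.

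Libraries are named by their labels throughout, because transcripts of MHC class II, the protein used for the sort, ran opposite to the labels in all 6 libraries. H2-Aa was at 5.52 ± 1.15 CPM in the labelled-high libraries and at 1350 ± 172 CPM in the labelled-low ones (SD, n = 3 each), and H2-Ab1, H2-Eb1, Cd74 and Ciita went the same way. CPM here are read counts relative to library sizes scaled by TMM, a factor that aligns most genes between libraries. Reads in genes ranged from 10202879 to 25473051. Labelled-low replicate 3 differed from the rest in quality: 47.3% of its reads came from 1 rRNA copy (3.85% to 13.5% elsewhere), it kept 4669283 reads outside rRNA and mitochondrial genes (11670849 to 17982808 elsewhere), and its CPM rose with the GC content of genes with a log2 slope of 0.82 for every 10 points of GC percent, where the others had -0.46 to 0.21. Values without that library are given for several members and lists, not for all that moved. Whether the labels of the libraries were exchanged was not tested, and if they were, every direction given here would turn round.

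Between the labels, none of the members was called. Of 33 members 32 had enough reads to be tested, and by edgeR's quasi-likelihood test with Benjamini-Hochberg adjustment over all 14140 tested genes 0 passed an adjusted p of 0.05, where 0.446% of all genes did. At an unadjusted p of 0.05, 3 members passed (Sdf2l1, Herpud1 and Sesn2), against 12.1% of all genes. DESeq2 called 0 of them (2.81% of all genes) and edgeR with an offset for the GC trend of each library also 0 (2.54%). All fold changes below are on the log2 scale, and a negative value means less RNA in the labelled-high libraries. Their 95% intervals stayed within 1 unit, a factor of 2, on both sides for 24 of the 32 members, reached below -1 for 7 and above 1 for 1.

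**Figure D1:**
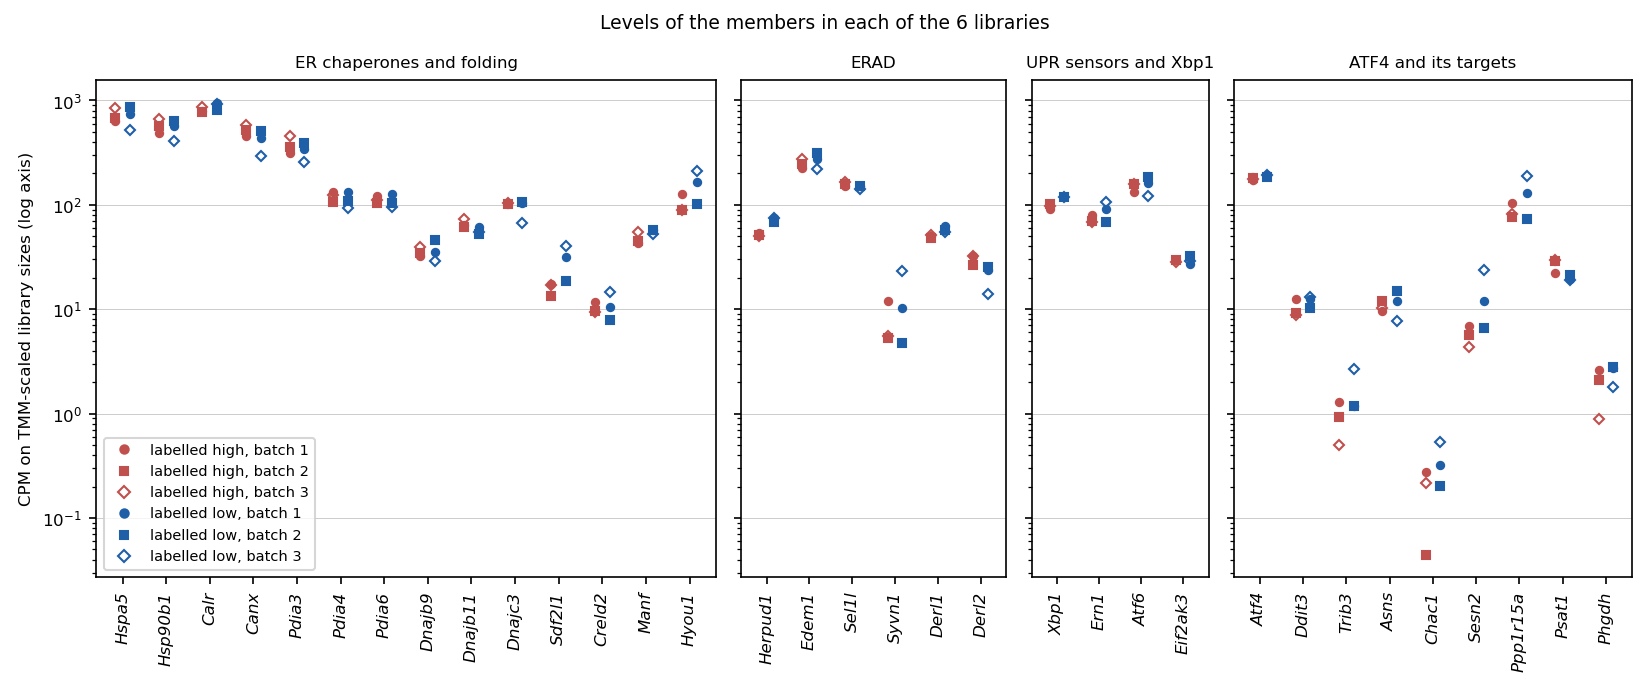
CPM (log axis) of the 33 members in each library, red for labelled high and blue for labelled low, with circles, squares and open diamonds for batches 1, 2 and 3. Levels ran from 524 CPM or more for Hspa5 and Calr to below 1 CPM for Chac1, and in most genes the red and blue points overlap.

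The 3 sensors and Xbp1 were all expressed. Xbp1, on chromosome 11 from 5520659 to 5525893, was at 90.4, 102 and 97.5 CPM in labelled-high replicates 1, 2 and 3 and at 119, 120 and 119 CPM in the labelled-low ones. The labelled-low libraries thus lay close together and above all labelled-high ones. The log2 fold change was -0.30 with a standard error of 0.15 (adjusted p 0.448 by edgeR), -0.31 when labelled-low replicate 3 was left out, and -0.10 under the GC offset. The labels did not overlap, with high below low, in 9.48% of all tested genes.

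Ern1, which encodes the sensor IRE1, was at 80.8, 70.1 and 69.1 CPM in the labelled-high set and at 90.8, 68.8 and 107 CPM in the labelled-low set. Its 2 ranges overlapped through labelled-low replicate 2 (log2 fold change -0.27, standard error 0.20, adjusted p 0.531, and -0.12 without labelled-low replicate 3). Atf6 was at 132, 158 and 159 CPM in the labelled-high set and 161, 184 and 122 CPM in the labelled-low set, so that the low label held both the highest and the lowest value. Its fold change was -0.06 with an interval from -0.52 to 0.40. Eif2ak3, which encodes PERK, was the flattest member, at 29.3 ± 0.733 and 29.4 ± 2.38 CPM (SD, n = 3 each), with a log2 fold change of -0.004 and an interval from -0.39 to 0.39. The median of the 4 fold changes was -0.17, beside -0.02 over all tested genes, and -0.23, -0.16 and -0.15 within batches 1, 2 and 3.

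The ER chaperones and folding factors had the highest summed CPM of the role groups, and 0 of the 14 passed the test. The 14 genes summed to 3339 to 4042 CPM in the labelled-high libraries and 3055 to 3819 CPM in the labelled-low ones. Per kilobase of exon, which allows levels of different genes to be compared, Calr, a lectin chaperone that also holds calcium, had the highest level of all members at 296 CPM per kb over the 6 libraries. It was followed by Hspa5, the Hsp70 chaperone BiP (169), Hsp90b1, the Hsp90 of the ER (138), Pdia3, a disulphide isomerase that works with the lectin chaperones (112.5), and Canx, the membrane-bound lectin chaperone calnexin (99.5). At the lower end were Manf, a secreted ER stress protein (14.7), Dnajb9, a BiP cochaperone (14.1), and Creld2, an ER-resident stress protein (7.77).

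Hspa5, on chromosome 2 from 34771970 to 34777547, was at 629, 675 and 845 CPM in labelled-high replicates 1 to 3 and at 742, 867 and 524 CPM in labelled-low replicates 1 to 3. Both the highest and the lowest library were labelled low. The log2 fold change was 0.01 (standard error 0.24, interval -0.53 to 0.55, adjusted p 0.985). Within batches 1 and 2 it was -0.24 and -0.36, and within batch 3 it was 0.69. Without labelled-low replicate 3 the fold change was -0.17, with an adjusted p above the threshold as in all other settings (0.469 to 0.992).

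Batch 3 also had the highest ratio in 3 other abundant chaperones, though not in Calr, with -0.27, -0.05 and -0.07 in batches 1, 2 and 3. Hsp90b1 had ratios of -0.20, -0.16 and 0.72 within batches 1, 2 and 3, Pdia3 of -0.10, -0.10 and 0.81, and Canx of 0.07, 0.01 and 0.99. The median over the 14 genes was -0.12, -0.09 and 0.40 in the 3 batches. Labelled-low replicate 3 had the lowest of the 6 values for 8 of the 14 chaperones, which is 57.1%, against 37.1% of all tested genes. The part of that library's quality in these values was not tested.

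Sdf2l1, a component of ER chaperone complexes, and Hyou1, an Hsp70-like nucleotide exchange factor for BiP, had the most negative fold changes of the chaperones. Sdf2l1 (chromosome 16, from 17130138 to 17132383) was at 17.3, 13.5 and 17.1 CPM in the labelled-high set and at 31.3, 18.6 and 40.5 CPM in the labelled-low set. All labelled-low values lay above all labelled-high ones, as in 9.48% of all tested genes, though labelled-low replicate 2 only by a small margin. The log2 fold change was -0.91 (standard error 0.29), the adjusted p being 0.316 by edgeR (0.132 by DESeq2, -0.42 and 0.248 with the GC offset, -0.64 without labelled-low replicate 3). Without labelled-low replicate 2 it was -1.13 with an adjusted p of 0.0256, in a setting that called 7.16% of all genes. The 5 libraries left then differed by label in GC slope too (-0.46 to 0.03 for labelled high, 0.21 and 0.82 for labelled low) and in rRNA share (3.85% to 5.17%, and 13.5% and 47.3%), and the part of these in the call was not tested.

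Hyou1 was at 126, 89.9 and 88.4 CPM in the labelled-high set and 166, 102 and 211 CPM in the labelled-low set. Labelled-low replicate 2 lay within the range of the other label. Its fold change was -0.65 (standard error 0.29, adjusted p 0.415), and without labelled-low replicate 2 it was -0.86 with an adjusted p of 0.0477. That setting called 7.16% of all genes and had the label differences in GC slope and rRNA share given for Sdf2l1. The fold change of Hyou1 was -0.40 without labelled-low replicate 3 (adjusted p 0.706), -0.45 with the GC offset (0.278) and -0.31 without batch 3. Dnajb11, another BiP cochaperone, was at 63.8, 61.8 and 73.0 CPM in the labelled-high set and at 61.6, 52.2 and 55.3 CPM in the labelled-low set, where the nearest values of the labels almost touched (fold change 0.23, adjusted p 0.523). High above low without overlap was seen in 10.5% of all tested genes.

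The remaining chaperones had fold changes between -0.22 for Manf and 0.32 for Canx, the latter 0.12 without labelled-low replicate 3. Pdia4 and Pdia6, disulphide isomerases, were at 121 ± 13.1 and 112 ± 8.55 CPM in the labelled-high set and 112 ± 19.8 and 109 ± 16.3 CPM in the labelled-low set (SD, n = 3 each). Calr was at 814 ± 49.8 and 892 ± 75.9 CPM. Dnajc3, an inhibitor of PERK that also assists BiP, was at 103 ± 2.31 and 92.1 ± 21.7 CPM, with 67.1 CPM in labelled-low replicate 3 alone setting the larger spread. Of the 14 intervals, 12 stayed within 1 log2 unit on both sides, and the median fold change was 0.02 (-0.06 without labelled-low replicate 3).

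**Figure D2:**
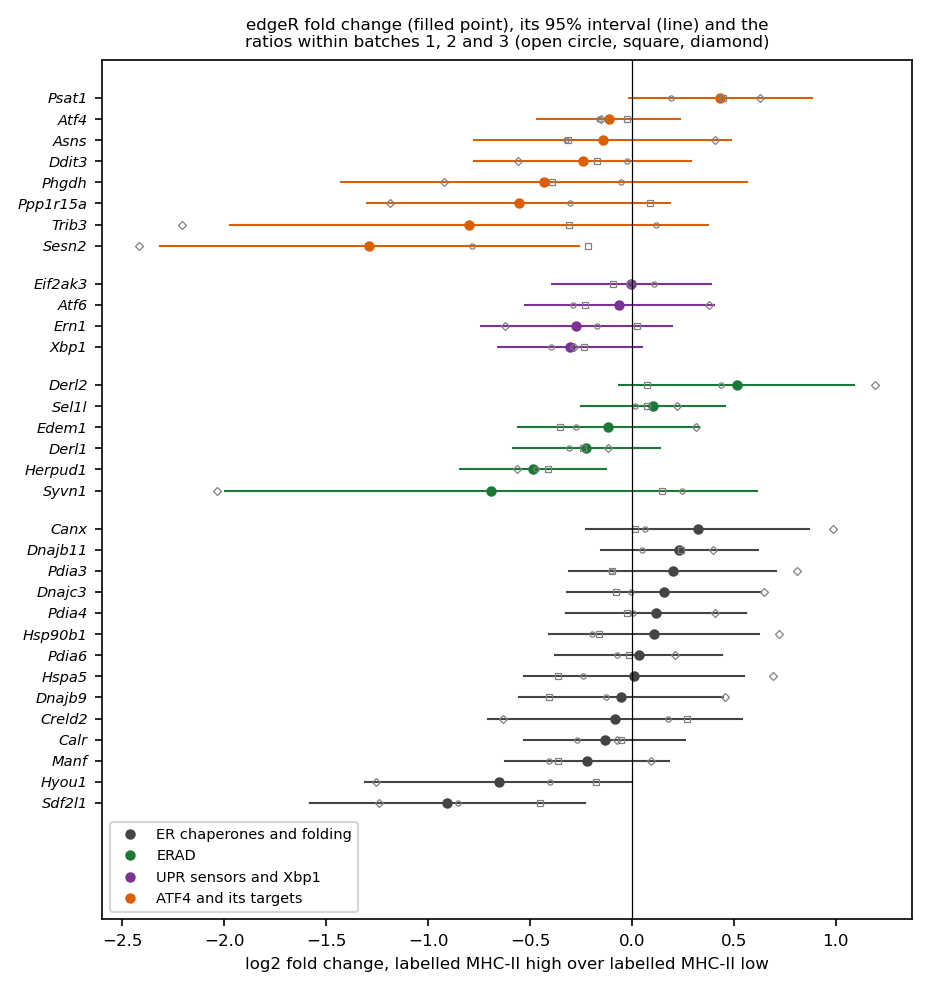
Log2 fold change of the 32 tested members (labelled high over labelled low, filled points) with the 95% interval of the edgeR fit, grouped by role, and the ratios within the 3 batches as open symbols. Most intervals cross 0. Those of Sdf2l1, Herpud1 and Sesn2 do not, before adjustment over all genes, and the batch 3 ratios of most chaperones lie to the right of the other batches.

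The 6 ERAD genes had fold changes of both signs, 2 positive and 4 negative. Herpud1, on chromosome 8 from 94386438 to 94395377, was at 54.1, 51.5 and 50.7 CPM in the labelled-high libraries and at 75.0, 68.7 and 75.0 CPM in the labelled-low ones. The gap between the labels was wider than the range within either of them. High below low without overlap was seen in 9.48% of all tested genes. The fold change was -0.48 with a standard error of 0.16 (interval -0.84 to -0.13, adjusted p 0.314 by edgeR), a level 1.4-fold higher in the labelled-low set, and the ratios within the 3 batches were -0.47, -0.41 and -0.56. It was -0.28 under the GC offset, -0.47 once labelled-low replicate 3 was dropped, and in none of the 14 settings did it pass the threshold (adjusted p 0.0821 to 0.857).

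Derl1 and Derl2, related channel proteins of the ERAD complex, differed from each other in direction. Derl1 was at 50.3, 48.5 and 51.1 CPM in the labelled-high set and 62.2, 57.2 and 55.3 CPM in the labelled-low set. Derl2 was at 32.2, 26.8 and 32.0 CPM in the labelled-high set and 23.7, 25.4 and 13.9 CPM in the labelled-low set. In neither did the labels overlap, with Derl1 lower and Derl2 higher in the labelled-high set (fold changes -0.22 and 0.51, adjusted p 0.516 and 0.438). High below low without overlap held in 9.48% of all tested genes, and high above low in 10.5%. Without labelled-low replicate 3, the lowest library for Derl2, its fold change was 0.30.

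Edem1, a lectin that picks misfolded glycoproteins for removal, was at 248 ± 23.0 and 269 ± 48.6 CPM, and Sel1l, the adaptor of the ubiquitin ligase, at 158 ± 5.97 and 147 ± 5.71 CPM, without overlap of the labels. Syvn1, the ligase itself, was far less abundant. It was at 12.1, 5.30 and 5.58 CPM in the labelled-high set and 10.2, 4.78 and 23.2 CPM in the labelled-low set, and the fold change was -0.69, but 0.03 without labelled-low replicate 3. The median of the 6 fold changes was -0.17. Over the 20 chaperone and ERAD genes together the median was -0.02, the same as over all tested genes, with 10 positive and 10 negative values. In 3 genes the high label lay entirely above the low label, and in 3 entirely below. Among all tested genes 10.5% and 9.48% did so.

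Atf4 and its targets were examined apart from these. Atf4 itself, on chromosome 15 from 80255184 to 80257541, was at 174, 182 and 175 CPM in the labelled-high libraries and 195, 185 and 194 CPM in the labelled-low ones. The 2 sets lay close together without overlap, with high below low as in 9.48% of all tested genes. The fold change was -0.11 (standard error 0.15, interval -0.46 to 0.24, adjusted p 0.705 by edgeR). With the GC offset it was 0.22, so that its direction depended on that correction. Per kilobase of exon Atf4 mRNA was the most abundant of its group, at 78.1 CPM per kb, followed by Ppp1r15a (37.1), and the other members had 6.44 or less.

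Ddit3, the pro-apoptotic transcription factor CHOP, was low at 12.4, 9.13 and 8.80 CPM in the labelled-high set and 12.6, 10.3 and 13.0 CPM in the labelled-low set. The ranges overlapped (fold change -0.24, adjusted p 0.607). A second, short gene model of that name, inside the first, had 0 reads in all libraries. Trib3, a pseudokinase induced by ATF4 and CHOP, had 124 reads in total, at 0.905 ± 0.391 and 1.68 ± 0.865 CPM, with a fold change of -0.80, and of -0.41 without labelled-low replicate 3. Chac1, a glutathione-degrading enzyme, was too low to test, with 12 reads in the labelled-high set and 14 in the labelled-low set. Trib3 and Chac1 were thus low under both labels, and with so few reads a change in either was not detectable except a large one.

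Sesn2, a stress-induced inhibitor of the growth kinase mTORC1, had the largest fold change of all members. It lies on chromosome 4 from 132492032 to 132510501 and was at 6.96, 5.61 and 4.33 CPM in the labelled-high set and at 12.0, 6.54 and 23.6 CPM in the labelled-low set. Labelled-low replicate 2 lay inside the labelled-high range, and replicate 3 stood far above all others. The fold change was -1.29 (standard error 0.45), the adjusted p being 0.36 by edgeR (0.11 by DESeq2). The GC offset gave -0.67 (adjusted p 0.107), and dropping labelled-low replicate 3 gave -0.73. An adjusted p of 0.0319 was reached without labelled-low replicate 2, in a setting that called 7.16% of all genes. The label differences in GC slope and rRNA share given for Sdf2l1 hold there too, and their part in the call was not tested. With no filter on low counts the adjusted p was 0.0160, and 2.02% of all genes were called.

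Ppp1r15a, the phosphatase subunit GADD34 that reverses eIF2 phosphorylation, was at 105, 77.0 and 82.2 CPM in the labelled-high set and 129, 72.4 and 187 CPM in the labelled-low set. The lowest and the highest library were both labelled low (fold change -0.56, standard error 0.32, adjusted p 0.478). The GC offset brought the fold change to -0.10, and dropping labelled-low replicate 3 to -0.20. Ppp1r15a is also an early-response gene, and a list of 20 genes induced by tissue dissociation had a median of -0.42, and of -0.09 with the GC offset, with 1 called gene, Btg2, lower in the labelled-high set. The part of dissociation in the Ppp1r15a values was not tested.

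The amino acid enzymes of the group had fold changes of both signs. Psat1, an enzyme of serine synthesis, was at 22.2, 29.2 and 29.6 CPM in the labelled-high set and at 19.4, 21.4 and 19.1 CPM in the labelled-low set. All labelled-high libraries were above all labelled-low ones, as in 10.5% of all tested genes. The fold change was 0.43 (standard error 0.20, adjusted p 0.42, 0.36 with the GC offset, 0.40 without labelled-low replicate 3). Phgdh, the first enzyme of the same pathway, was at 1.87 ± 0.883 and 2.43 ± 0.558 CPM, and Asns, which makes asparagine, at 10.7 ± 1.28 and 11.6 ± 3.73 CPM. Psat1 was the 1 positive value among the 8 tested genes, whose median was -0.34. That median was -0.28 without labelled-low replicate 3, -0.22 with the GC offset, and -0.11, -0.20 and -0.74 within batches 1, 2 and 3.

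**Figure D3:**
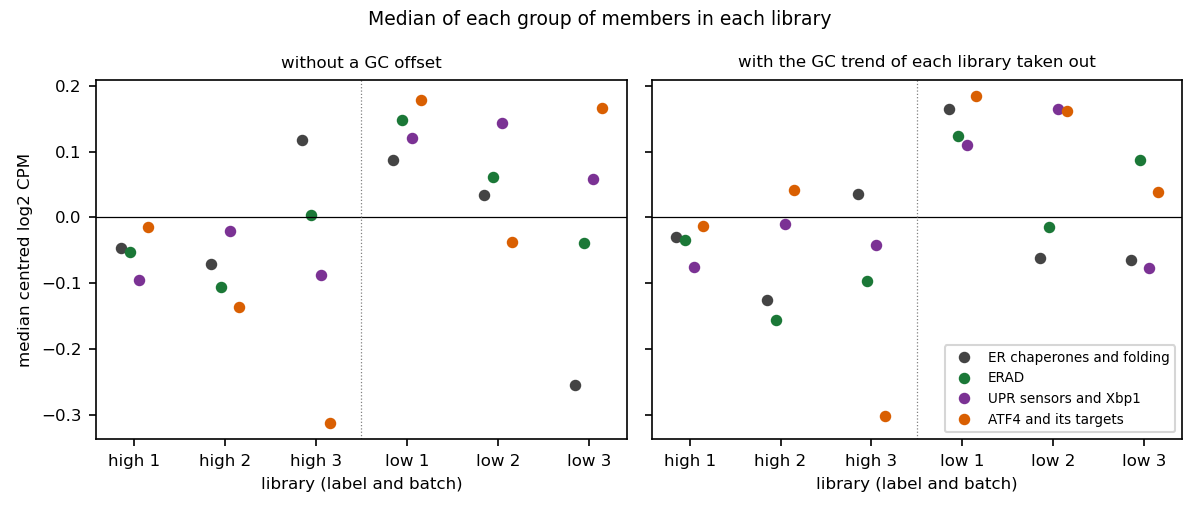
Median over the tested members of each role group of log2 CPM, centred on each gene's mean over the 6 libraries, without (left) and with (right) the GC trend of each library taken out. On the left the chaperones have their lowest median, -0.26, in labelled-low replicate 3, where the Atf4 group is at 0.17. In labelled-high replicate 3 the 2 groups lie at 0.12 and -0.31. On the right the 2 groups are at -0.065 and 0.038 in labelled-low replicate 3, and at 0.036 and -0.301 in labelled-high replicate 3. The lowest chaperone median on the right is -0.125, in labelled-high replicate 2.

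The chaperone group and the Atf4 group had medians of 0.02 and -0.34, and of -0.11 and -0.22 once GC trends were taken out. Without batch 3 they were -0.13 and -0.12. The Atf4 median was -0.13 without labelled-high replicate 3 and -0.53 without labelled-high replicate 1. The difference between the groups was not tested. The members' GC content differed by group: its median was 48.25% over the chaperones, 48.5% over ERAD genes, 50.9% over the sensors and Xbp1 and 55.6% over the Atf4 group. Over the 32 tested members, which share the 6 libraries, Spearman's rho between GC content and fold change was -0.74, beside -0.58 over 14123 tested genes. After the GC offset these were -0.14 and -0.04. The 3 members with the most negative fold changes, Sesn2, Sdf2l1 and Trib3, had a GC content of 58.7%, 56.7% and 58.2%.

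**Figure D4:**
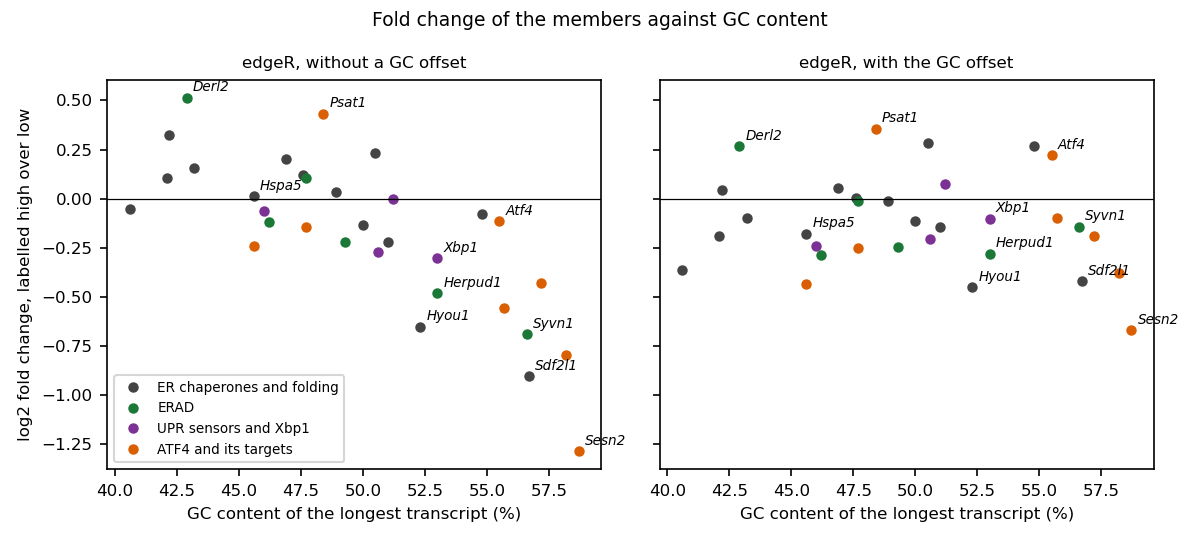
Log2 fold change of the 32 tested members (labelled high over labelled low) against the GC content of the longest transcript, without (left) and with (right) the GC offset in edgeR. On the left the values fall from left to right (Spearman correlation -0.74). On the right they scatter around a flat line (-0.14), with Sesn2 lowest at -0.67 and Psat1 highest at 0.36.

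Other genes of the same pathways were taken as fixed lists, and edgeR called 0 genes in each of the 7 lists. Of 31 other folding and translocation genes the median fold change was -0.004. The smallest p values there were those of Ssr2, a subunit of the translocon-associated complex, at 50.6 ± 4.81 and 87.8 ± 26.2 CPM (adjusted p 0.277), of Sec61a1, the pore of the translocon, at 118 ± 9.92 and 183 ± 44.2 CPM (0.349), and of Tmx1, a membrane-bound thioredoxin, at 71.7 ± 11.5 and 42.7 ± 14.3 CPM (0.367). Tmx1 was called with the GC offset (fold change 0.45, adjusted p 0.0499), while 0 genes of the list were with the offset and the batch block. Ssr2 and Sec61a1 had fold changes of -0.79 and -0.63, and of -0.37 and -0.33 with the GC offset. Without labelled-low replicate 2 all 3 of these genes were called. The fits with the GC offset and without that library called 2.54% and 7.16% of all genes. The latter had the label differences in GC slope and rRNA share given for Sdf2l1. Of 21 tested other ERAD genes the median was -0.02, with Ubac2, Edem3 and Aup1 leading at fold changes of -0.55, 0.59 and -0.68. With the GC offset these were -0.289, 0.369 and -0.075. Edem3 was the 1 called without labelled-low replicate 2. Among 12 genes of the eIF2 kinases, eIF2 and its exchange factor eIF2B the median was -0.04, and Eif2s1, the phosphorylated subunit itself, was at 106 ± 13.0 and 75.3 ± 23.0 CPM (adjusted p 0.445). Eif2b1 and Eif2b2, subunits of the exchange factor, had fold changes of 0.34 and -0.48, and of 0.35 and -0.13 with the GC offset. For Eif2s1 the fold change was 0.49, and 0.19 with the GC offset.

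Other genes linked to ATF4 had a median of -0.48 over 25 tested genes, with 20 negative and 5 positive values, and of -0.11 with the GC offset. Vldlr, a lipoprotein receptor gene induced through ATF4, was at 4.79, 5.57 and 3.29 CPM in the labelled-high set and at 0.959, 1.51 and 1.25 CPM in the labelled-low set. All labelled-high libraries were at more than 2 times the highest labelled-low one (fold change 1.86, standard error 0.34, adjusted p 0.0845 by edgeR, and 0.0411 with the GC offset). Ddit4, an inhibitor of mTORC1 also induced by hypoxia, was at 11.6, 9.85 and 9.69 CPM in the labelled-high set and 19.1, 19.1 and 44.6 CPM in the labelled-low set (fold change -1.40, adjusted p 0.194, and 0.0555 with the GC offset). Slc1a4, a neutral amino acid transporter, was at 1.23 ± 0.374 and 2.57 ± 0.466 CPM (adjusted p 0.314). Other settings called 2 genes of this list by DESeq2 (Vldlr and Ddit4) and 3 with no filter, against 2.81% and 2.02% of all genes. Without labelled-low replicate 2 also 3 were called, against 7.16% (both sets of 3 with Slc7a5). The label differences in GC slope and rRNA share given for Sdf2l1 hold there too. The GC offset called 2 (Vldlr higher, Slc7a11 lower), against 2.54% of all genes. With the offset and the batch block 4 were called (all of these), beside 161 higher and 372 lower among all tested genes. Slc7a5 and Slc7a11, amino acid transporters, were named after their values were seen. Vldlr and Ddit4 were thus separate between the labels in opposite directions.

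The 18 cytosolic aminoacyl-tRNA synthetases, of which many are ATF4 targets, had a median of 0.03, with 9 positive and 9 negative values. Vars, Aars and Yars led with fold changes of -1.02, -0.47 and -0.41, and -0.276, -0.035 and -0.184 with the GC offset. Vars was at 41.8, 27.4 and 108 CPM in labelled-low replicates 1, 2 and 3. It was called with no filter, where 2.02% of all genes were called. The median over 12 cytosolic heat shock genes was -0.27, and -0.07 with the GC offset. Bag3, Dnajb1 and Hsf1 led there at -0.75, -0.37 and -0.73 (-0.288, -0.179 and -0.403 with the GC offset). Over 11 genes of mitochondrial stress the median was 0.21. Clpx, Hspe1 and Htra2 led at 0.43, 0.43 and -0.45 (0.221, 0.245 and 0.124 with the GC offset).

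Lists of cell type markers were counted in the same fit. Of 12 macrophage markers 0 were called (median -0.31, -0.07 with the GC offset and -0.08 without labelled-low replicate 3). Their fold changes were positive in 5 and negative in 7. With the GC offset, which called 2.54% of all genes, 2 markers were called higher, Lyz2 (adjusted p 0.0206) and Adgre1 (0.024). They were at 6456 ± 562 and 344 ± 25.8 CPM in the labelled-high set and 3384 ± 264 and 184 ± 33.8 CPM in the labelled-low set. Of 8 tested dendritic cell markers 4 were lower in the labelled-high set (Flt3, Ccr7, Itgax and Ccl22), and the summed level of the 12 listed was 50.5 to 91.2 CPM there against 282 to 422 CPM in the labelled-low set. These sums were mostly Itgax, with 4386 reads in the labelled-high set and 13435 in the labelled-low set. Flt3 had 8 and 186 reads, Ccr7 1 and 229, and Ccl22 41 and 601. The 11 B and plasma cell markers, mostly Sdc1, summed to 49.1 to 63.8 and 74.3 to 163 CPM. The 3 tested ones all had labelled-high values below all labelled-low ones and 0 were called. Such separation was seen in 9.48% of all tested genes. Ighm, an immunoglobulin heavy chain, had 100 reads in the labelled-high set and 272 in the labelled-low set (fold change -2.21, adjusted p 0.0824, and 0.0193 with the GC offset). Igkc had 0 and 36 reads, Jchain 2 and 1, and Mzb1 0 in both. In bulk libraries, fewer cells of a type and less RNA per cell cannot be told apart, and the part of dendritic, B and plasma cells in the Xbp1 and Herpud1 values was not tested.

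The remaining marker lists summed to 73.5 to 413 and 131 to 603 CPM for 9 fibroblast genes and to 14.8 to 21.65 and 41.0 to 42.6 CPM for 7 epithelial genes, of which Cdh1 was lower in the labelled-high set. For 8 neutrophil genes they summed to 14.1 to 16.9 and 12.5 to 28.55 CPM, and for 10 T and NK cell genes to 0.7235 to 1.57 and 2.49 to 2.855 CPM. Ly6g, Cldn4, Cd3e, Cd3d and Cd8a had 0 reads. The exons of 11 members overlap those of another gene in the annotation, among them Hsp90b1, Manf, Syvn1, Derl2, Eif2ak3, Ddit3 and Ppp1r15a, and their counts could include or lose reads of that gene.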

How the data were processed

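Total RNA of sorted macrophages went through rRNA depletion and a stranded library kit, per the labels' protocols. The authors deposited raw read counts per Ensembl gene for 6 libraries. Per the submitters' processing notes, the build was GRCm38 and the tools included STAR, HTSeq, Trimmomatic, FastQC and DESeq2. Versions, annotation release and strand setting of the counting: not given in the sources used here. Reads from antisense partners therefore cannot be told apart. The 5 summary lines of each table, of which reads in no feature were 35.2% to 49.4% of all listed reads, stayed out of library sizes.

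Symbols, positions and exon lengths came from GENCODE M21 (GRCm38), matching 55227 of 55487 genes. Promoter windows came from RefSeq (GRCm38.p6), 32851 windows of 27025 genes. The test was edgeR 4.0.16 in R 4.3.3 (TMM, default filter on low counts, quasi-likelihood test, no block), and the threshold was a Benjamini-Hochberg adjusted p of 0.05 over 14140 genes. Standard errors were derived from the F statistic (fold change over its root), and 95% intervals use the test's total degrees of freedom. The code was tested on simulated data. Alternatives were RLE factors, DESeq2 1.42.0, no filter, the batch as block, a GC offset (local regression of log2 CPM on GC content, span 0.4) alone and with the block, tables without rRNA and mitochondrial genes, and fits lacking each library in turn or batch 3. The labels give same-numbered libraries a shared batch number, and deviations of batch partners from their label means correlated at 0.16, 0.34 and -0.12.

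The members and lists were chosen with earlier results of these data known. All 33 members are named. Those given library by library are the 3 of smallest p in each role group, those called in any alternative, and Hspa5, Xbp1, Atf4 and Ddit3; Syvn1 was added after its values were seen. From each other pathway list the 3 genes of smallest p at 1 CPM or more are named, and from each marker list up to 2. Genes with 0 reads, Jchain and those listed as called were named after their values were seen. Protein sequences were not used here.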

Additional observations from a re-analysis of the deposited data

How the results depend on the processing

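Each label had 3 libraries, which limits the precision, and labelled-low replicate 3 was the shallowest. Leaving it out gave 15 genes higher and 55 lower, with 0 members called. No member was called with RLE factors, DESeq2, the GC offset, the rRNA and mitochondrial genes taken out, or batch 3 left out, and the replicate block changed no member's call. Sdf2l1, Hyou1 and Sesn2 were called without labelled-low replicate 2, where 7.16% of all genes were called. Sesn2 was also called with no filter, where 2.02% of all genes were. Of the 32 tested members, 17 kept their sign in all 14 settings, and 48 values in the other 15 members changed sign. The cause was not tested.

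Against 13 genes higher and 50 lower among all tested genes, DESeq2 called 121 and 277, no filter 113 and 436, the GC offset 121 and 238, and the fit without batch 3 called 0 and 28. Leaving out 1 library gave 0 to 246 higher and 8 to 784 lower genes, the largest counts without labelled-low replicate 2. The batch as replicate block left 1 higher gene, and the GC offset with the replicate block called 161 higher and 372 lower. With no filter 1 member of the Atf4 group was called, and the median of the sensors and Xbp1 was -0.096. Leaving out 1 library gave 0 to 2 called chaperone and ERAD members, 0 to 1 in the Atf4 group, and a sensor median of -0.167 to -0.085.

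Fold changes that changed sign were, with no filter, Dnajb9 0.002, Creld2 0.004 and Eif2ak3 0.063. With the GC offset they were Hspa5 -0.179, Hsp90b1 -0.191, Pdia6 -0.013, Dnajc3 -0.098, Creld2 0.267, Sel1l -0.014, Eif2ak3 0.076 and Atf4 0.222. With the offset and the replicate block they were Hspa5 -0.179, Hsp90b1 -0.19, Pdia6 -0.008, Dnajc3 -0.094, Creld2 0.264, Sel1l -0.013, Eif2ak3 0.087 and Atf4 0.249. Without rRNA and mitochondrial genes Eif2ak3 was at 0.01. Without batch 3 they were Hspa5 -0.3, Hsp90b1 -0.174, Pdia3 -0.099, Pdia4 -0.005, Pdia6 -0.043, Dnajc3 -0.037, Creld2 0.223, Syvn1 0.22 and Eif2ak3 0.004. Over the 6 fits lacking 1 library, the ranges were -0.169 to 0.209 for Hspa5, -0.06 to 0.283 for Hsp90b1, -0.055 to 0.175 for Pdia6, -0.199 to 0.175 for Dnajb9, -0.025 to 0.298 for Dnajc3, -0.237 to 0.159 for Creld2, -0.248 to 0.044 for Edem1, -1.153 to 0.028 for Syvn1, -0.21 to 0.106 for Atf6, -0.036 to 0.098 for Eif2ak3 and -0.353 to 0.107 for Asns.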
